A study of Mus musculus with 13 samples.

Results

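The 10 genes of prostaglandin and leukotriene synthesis described here were followed in bulk RNA-seq of the mouse brain during cuprizone feeding and after its withdrawal. They were chosen by name as Pla2g4a, Ptgs1, Ptgs2, Ptgds, Hpgds, Ptges, Tbxas1, Alox5, Alox5ap and Ltc4s, and all 10 were found once among the 55401 gene identifiers of the table, spike-ins left out. Prostaglandins and leukotrienes are short-lived lipid messengers made from arachidonic acid. Cytosolic phospholipase A2 (Pla2g4a) frees arachidonic acid from membranes, the cyclooxygenases (Ptgs1, Ptgs2) turn it into the common precursor prostaglandin H2, and terminal synthases make prostaglandin D2 (Ptgds, Hpgds), prostaglandin E2 (Ptges) or thromboxane A2 (Tbxas1) from that precursor. In the other branch, 5-lipoxygenase (Alox5) with its activating protein (Alox5ap) makes leukotriene A4, to which leukotriene C4 synthase (Ltc4s) joins glutathione. In the brain, lipocalin-type prostaglandin D synthase (Ptgds) is known from the meninges, the choroid plexus and oligodendrocytes, while Ptgs1, Hpgds, Tbxas1 and the leukotriene enzymes are known from microglia and other myeloid cells.

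All mice were male C57BL/6J wild-type animals, labelled as 6 to 8 weeks old (the study's text gives an older age), and each gave 1 library from a snap-frozen brain hemisphere. The 5 CTL mice ate normal chow throughout 6 weeks, the 4 CPZ mice ate chow with 0.3% cuprizone during 4 weeks, and the 4 RCV mice ate that cuprizone chow during 4 weeks before 2 weeks on normal chow. Cuprizone is a copper chelator that kills mature oligodendrocytes and is followed by demyelination and a strong microglial reaction. CPZ mice were killed at week 4 and CTL and RCV mice at week 6, so that time in the study and cuprizone feeding cannot be told apart between CPZ and either other group.

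The libraries held 4605100 to 8197289 estimated counts. Brain markers were present in every library, as summed CPM (counts scaled to library size) of 8 excitatory neuron markers lay between 2384 and 4599. The 10 astrocyte markers summed to 4234 to 4675 CPM in CTL, 5104 to 6191 in CPZ and 5062 to 5678 in RCV. In CPZ against CTL, 6 of them were called higher and 4 were not called, beside 7.66% of all tested genes called higher. Their median log2 fold change was 0.38, with a range of -0.091 to 2.45. Gfap (5.39-fold) and Vim (4.27-fold) lay above that median (adjusted p 5.29e-07 and 1.16e-06, edgeR). In RCV against CTL, 3 were called higher, beside 0.360% of all tested genes. Markers of microglia (17 genes) summed to 451 to 550 CPM in CTL, 1656 to 3524 in CPZ and 709 to 973 in RCV, with CPZ replicate 3 the lowest CPZ library. Markers of mature oligodendrocytes (16 genes) summed to 4544 to 8515 CPM in CTL, 2004 to 3372 in CPZ and 5986 to 10207 in RCV. Choroid plexus markers (12 genes) ran from 229 to 4418 CPM, and RCV replicates 3 and 4 held the lowest sums, at 229 and 258. In bulk tissue, more cells of a type and more RNA per cell cannot be told apart.

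The promoters of Tbxas1, Hpgds, Ltc4s and Ptgs1, the 4 members that rose in CPZ mice, and of Ptgs2, which did not pass the test, are shown so that the sequences can be read beside the levels. The windows run from 250 bases before to 50 bases after the RefSeq transcription start (GRCm38.p6), and all are written 5′ to 3′ on the strand of the gene. Capitals mark the 6 letters GAGGAA or their complement TTCCTC, the core bound by the myeloid factor PU.1, and in Ptgs2 also ACGTCA, the core of a cAMP response element, and CACGTG, an E-box, which overlap there by 2 letters. Tbxas1 lies at chr6:38918736-38919035 on the plus strand, Hpgds at chr6:65144681-65144980 on the minus strand, Ltc4s at chr11:50238483-50238782 on the minus strand, Ptgs1 at chr2:36230176-36230475 on the plus strand and Ptgs2 at chr1:150099781-150100080 on the plus strand.
Tbxas1: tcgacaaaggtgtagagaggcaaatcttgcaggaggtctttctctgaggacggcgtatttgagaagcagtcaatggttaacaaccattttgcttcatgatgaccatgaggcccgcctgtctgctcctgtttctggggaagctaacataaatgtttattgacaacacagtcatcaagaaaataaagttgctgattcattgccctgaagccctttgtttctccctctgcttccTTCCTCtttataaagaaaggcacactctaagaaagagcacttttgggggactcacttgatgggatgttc
Hpgds: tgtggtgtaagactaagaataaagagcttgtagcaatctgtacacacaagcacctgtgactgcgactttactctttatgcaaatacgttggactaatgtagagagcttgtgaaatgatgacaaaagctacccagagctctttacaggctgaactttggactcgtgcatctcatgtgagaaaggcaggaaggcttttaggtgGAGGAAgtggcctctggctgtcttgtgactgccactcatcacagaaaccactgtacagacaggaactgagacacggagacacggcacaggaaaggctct
Ltc4s: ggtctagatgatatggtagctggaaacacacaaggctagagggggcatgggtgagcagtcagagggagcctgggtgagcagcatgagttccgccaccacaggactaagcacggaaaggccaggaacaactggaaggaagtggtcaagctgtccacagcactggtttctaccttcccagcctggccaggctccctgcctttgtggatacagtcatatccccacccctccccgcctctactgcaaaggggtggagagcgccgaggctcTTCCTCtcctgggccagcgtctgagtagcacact
Ptgs1: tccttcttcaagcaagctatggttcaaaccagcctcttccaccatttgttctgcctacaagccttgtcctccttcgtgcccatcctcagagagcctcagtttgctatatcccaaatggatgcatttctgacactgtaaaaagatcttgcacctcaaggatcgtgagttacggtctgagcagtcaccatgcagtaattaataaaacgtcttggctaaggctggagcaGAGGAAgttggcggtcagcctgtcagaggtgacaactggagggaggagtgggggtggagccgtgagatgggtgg
Ptgs2: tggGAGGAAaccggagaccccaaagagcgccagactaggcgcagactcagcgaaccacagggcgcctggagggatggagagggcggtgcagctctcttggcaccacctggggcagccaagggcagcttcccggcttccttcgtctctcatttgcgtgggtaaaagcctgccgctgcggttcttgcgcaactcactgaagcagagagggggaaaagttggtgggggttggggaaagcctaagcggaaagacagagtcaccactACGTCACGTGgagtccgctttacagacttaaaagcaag

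GAGGAA in either direction was in the window of 7 of the 9 members that have one in the RefSeq table, and in 28.3% of 32851 mouse windows of that length. Counted from the start site, its first base stood at -19 in Tbxas1, at -49 in Hpgds, at 17 in Ltc4s, at -24 in Ptgs1 and at -247 in Ptgs2. The windows of Ptgds and Pla2g4a did not hold these letters, and those of Alox5 and Ptges did. ACGTCA was in 7.51% and CACGTG in 7.15% of all windows, and among the members both were in Ptgs2. The motifs were chosen after these sequences had been seen, and a match of 6 letters describes the sequence and does not show a bound site.

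Per transcript length and library (TPM), Ptgds stood far above the others. Its mean was 1051 ± 368 TPM in CTL (SD, n = 5), 581 ± 183 in CPZ and 1106 ± 415 in RCV (n = 4 each), and no library of another member reached its lowest value of 428. It made up 92.9% to 96.9% of the summed TPM of the 10 genes in CTL, 70.5% to 91.9% in CPZ and 92.0% to 96.5% in RCV. The next in the CTL order were Ptgs1 (14.2 ± 2.2 TPM), Alox5ap (9.93 ± 5.16) and Ltc4s (9.42 ± 3.61), followed by Hpgds (4.62 ± 1.34), Ptges (3.60 ± 1.39), Ptgs2 (3.46 ± 1.18), Pla2g4a (2.60 ± 0.39), Tbxas1 (2.37 ± 0.66) and Alox5 (1.41 ± 0.44). Below Ptgds, the libraries of each gene overlapped those of the next one in this order. In CPZ, Tbxas1 moved from the ninth to the fourth place, with 23.3 ± 9.8 TPM, again overlapping its neighbours Ptgs1 (27.3 ± 9.7) and Alox5ap (18.2 ± 7.9). The length behind a TPM value is estimated in each library, and for Alox5, Alox5ap, Ptges, Pla2g4a and Ptgs2 the ratio of count to TPM, relative to the other genes, differed 2.58-fold to 4.62-fold between libraries, so that differences between groups were tested on the counts.

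Differences between groups were tested on the counts with edgeR's quasi-likelihood test over 14985 genes, with p adjusted by the Benjamini-Hochberg method, and a gene was called where the adjusted p was below 0.05. Of the 10 members, 9 passed the filter on low counts, and Alox5 did not. In CPZ against CTL, 4 of the 9 were called and all 4 were higher in CPZ, beside 7.66% of all tested genes called higher and 2.50% called lower. For the same 4, every CPZ library lay above every CTL library, which held for 8.25% of all tested genes, while 4.86% lay below without overlap. The median log2 fold change of the 9 members was 1.11, beside -0.020 over all tested genes. In CPZ against RCV, 4 were called, all higher in CPZ (5.13% of all genes were higher and 1.88% lower), and 3 of them did not overlap (8.26% of all genes higher, 4.93% lower), with a median of 0.75. In RCV against CTL, 0 of 9 were called by edgeR, 2 had an unadjusted p below 0.05, the Wald test of DESeq2 called 1 and limma-voom called 0. Over all genes, 0.360% were called higher and 0.0133% lower in that comparison. Of the 9 members, 1 lay above CTL without overlap there, beside 2.21% of all genes higher and 0.687% lower. The same CTL, CPZ and RCV libraries serve in these comparisons, so that their values are not independent of each other.

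**Figure D1:**
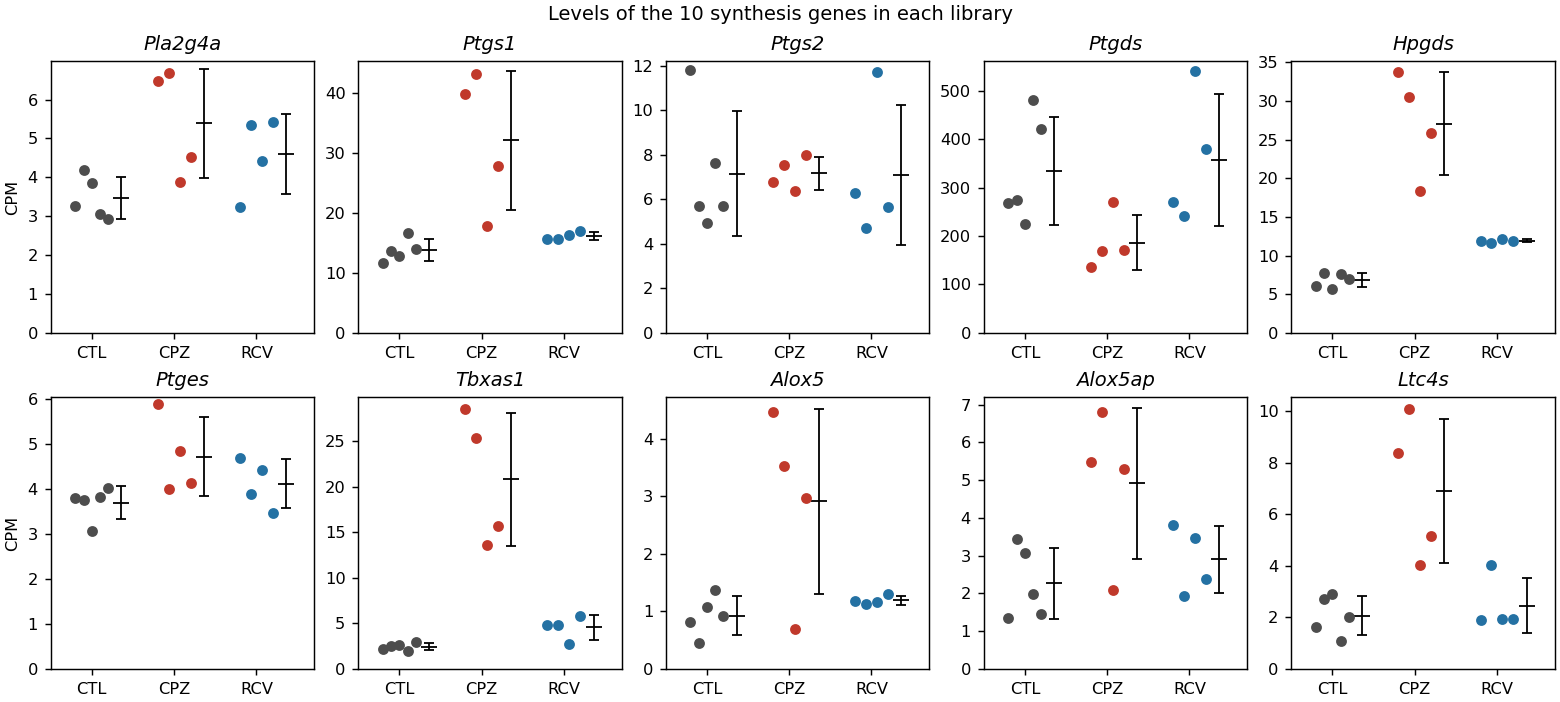
CPM of the 10 synthesis genes in each library of the 5 CTL, 4 CPZ and 4 RCV mice, 1 point per mouse, with the mean and SD beside each group (each panel has its own axis from 0). Tbxas1, Hpgds, Ltc4s and Ptgs1 lay higher in every CPZ library than in every CTL library, with the CPZ libraries widely spread, while Ptgs2 overlapped across all 3 groups.

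**Figure D2:**
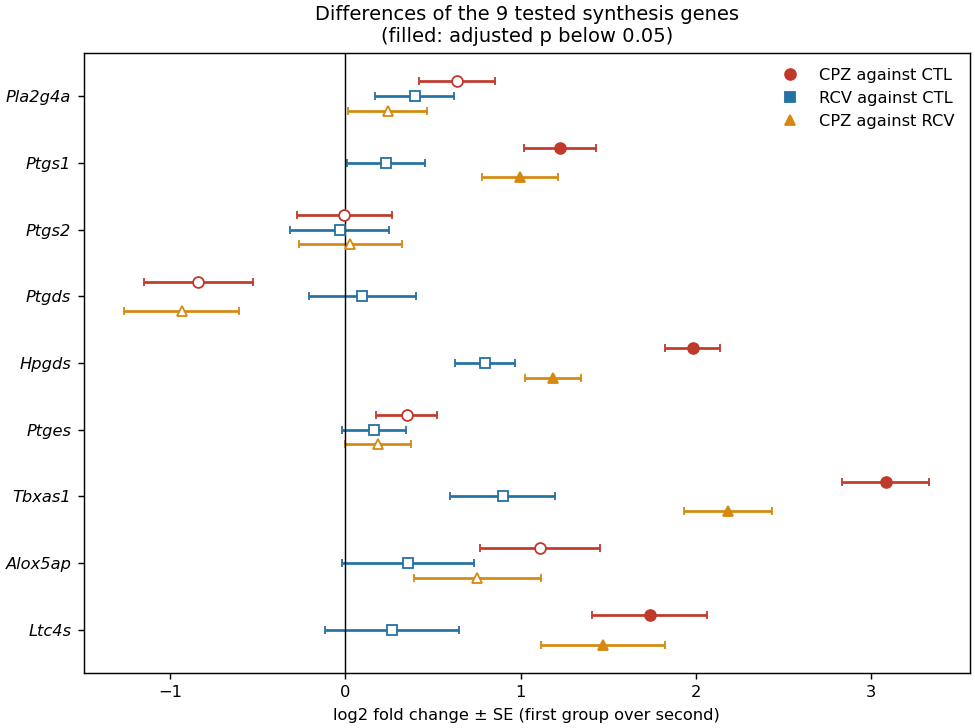
Log2 fold change with its SE for the 9 tested members (rows) in CPZ against CTL (circles), RCV against CTL (squares) and CPZ against RCV (triangles), where filled symbols mark an adjusted p below 0.05. Tbxas1 had the highest fold change in CPZ, 3.09, and no square is filled.

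Arachidonate release was represented by Pla2g4a (chr1:149829618-149961290, minus strand, GENCODE M21 on GRCm38), the calcium-dependent phospholipase that starts the pathway. It was at 3.26, 4.20, 3.84, 3.06 and 2.93 CPM in the CTL libraries, 6.48, 6.69, 3.88 and 4.52 in CPZ and 3.23, 5.35, 4.43 and 5.42 in RCV. CPZ replicate 3 lay within the CTL range, and the other CPZ libraries lay above it. The log2 fold change of CPZ against CTL was 0.64 (SE 0.22) with an adjusted p of 0.0786 by edgeR, which became 0.0360 without CPZ replicate 3. Over the other alternatives the p ran up to 0.251.

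Of the cyclooxygenases, Ptgs1 rose in CPZ and Ptgs2 did not pass the test in any comparison. Ptgs1 (chr2:36230426-36252272, plus strand), the constitutive isozyme, was at 11.7, 13.7, 12.8, 16.7 and 13.9 CPM in CTL, 39.8, 43.0, 17.8 and 27.8 in CPZ and 15.7, 15.6, 16.4 and 16.9 in RCV. All CPZ libraries lay above those of both other groups, CPZ replicate 3 by a small margin, and the RCV libraries lay close together near the top of the CTL range. It rose 2.34-fold in CPZ over CTL (log2 1.23, SE 0.20, adjusted p 0.000964, edgeR), and CPZ lay 1.99-fold above RCV (log2 1.00, SE 0.22, adjusted p 0.0125). This second call was lost under limma-voom (adjusted p 0.0531), with CPZ and RCV fitted alone (0.0581), on log2 TPM (0.109 to 0.185) and without RCV replicates 3 and 4 together (0.0927).

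Ptgs2 (chr1:150100031-150108227, plus strand), the inducible isozyme, which neurons also use as an activity-induced gene, was at 11.8, 5.70, 4.92, 7.64 and 5.68 CPM in CTL, 6.77, 7.54, 6.38 and 8.01 in CPZ and 6.30, 4.70, 11.7 and 5.64 in RCV. The groups overlapped throughout, and CTL replicate 1 and RCV replicate 3 were the high libraries. The log2 fold change in CPZ was -0.0063 (SE 0.27, adjusted p 0.994, edgeR), and its sign turned with the scaling to total counts alone and in 11 further alternatives. Among 12 immediate early genes of neurons, 0 were called in CPZ against CTL by edgeR, 0 had an unadjusted p below 0.05, and DESeq2 and limma-voom called 0 as well. Their summed CPM overlapped between the groups, from 245 to 750 in CTL, 412 to 482 in CPZ and 272 to 762 in RCV.

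As a share of the summed TPM of both cyclooxygenases, Ptgs1 took 73.2% to 84.4% in CTL, 81.7% to 91.1% in CPZ and 74.7% to 89.5% in RCV. The CPZ share was 5.19 percentage points above CTL on average, with an exact two-sided permutation p of 0.111 and 0.214 after adjustment over 6 tests of shares. As a share of counts, which does not rest on the estimated lengths, Ptgs1 took 49.7% to 72.2% in CTL. In CPZ it took 73.6% to 85.4%, without overlap with CTL. The exact two-sided permutation p was 0.0159, the smallest that 4 against 5 mice can give. Adjusted over the 6 tests of shares on counts alone it was 0.0476. No adjustment over the tests on TPM and on counts together was made, so that this value does not account for those on TPM. CTL replicate 1 held the 49.7%, and the other CTL libraries ran from 68.6% to 72.2%. The RCV libraries took 58.2% to 76.8% and overlapped CPZ (exact permutation p 0.114 for CPZ against RCV, adjusted 0.137). These shares were added after the levels had been seen, and their tests are not independent of those of the single genes.

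Of the prostaglandin D synthases, Hpgds rose in CPZ, and Ptgds had a lower mean in CPZ that did not pass the test. Hpgds (chr6:65117293-65144908, minus strand), the hematopoietic enzyme, was at 6.12, 7.80, 5.69, 7.64 and 6.97 CPM in CTL, 33.7, 30.5, 18.3 and 25.8 in CPZ and 11.9, 11.7, 12.1 and 11.9 in RCV. The 3 groups did not overlap, the RCV libraries lay between the others, and their SD of 0.19 CPM was the smallest of the 3 groups. It rose 3.96-fold in CPZ (log2 1.98, SE 0.16, adjusted p 7.29e-07, edgeR), and CPZ lay 2.28-fold above RCV (log2 1.19, SE 0.16, adjusted p 0.000418). RCV stood 1.74-fold above CTL (log2 0.80, SE 0.17) with an adjusted p of 0.0657. That p was 0.0116 by the Wald test of DESeq2 and ran from 0.00778 without CPZ replicate 3 to 0.812 over the alternatives, with 5 of 25 below the threshold, one of them without CPZ replicate 1 (0.0378).

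Ptgds (chr2:25466709-25470046, minus strand), the lipocalin-type enzyme, was at 268, 275, 225, 482 and 422 CPM in CTL, 137, 169, 270 and 172 in CPZ and 270, 241, 541 and 380 in RCV. In CPZ, 3 of 4 libraries lay below all CTL and RCV libraries, and CPZ replicate 3 lay among them. The fold change of CPZ over CTL was 0.56 (log2 -0.84, SE 0.31, adjusted p 0.131, edgeR) and of CPZ over RCV 0.52 (log2 -0.94, SE 0.33, adjusted p 0.133), and neither was called in any of 25 alternatives. Of 15 meningeal fibroblast markers, 0 were called in CPZ against CTL by edgeR, 0 had an unadjusted p below 0.05, DESeq2 and limma-voom called 0, and their summed CPM ran from 128 to 251 in CTL, 128 to 258 in CPZ and 172 to 242 in RCV. The CPZ and RCV libraries with the most Ptgds, replicate 3 of each group, also had the highest meningeal sums of their groups, 258 and 242 CPM. In CTL, replicate 4 with the most Ptgds had 202 CPM of these markers and replicate 3 with the least had 251, and CPZ replicate 1, the lowest library in Ptgds, had 222. By the mean log2-CPM of the same markers the order of these CTL libraries was the other way, at 3.11 in replicate 4 and 2.95 in replicate 3. Mature oligodendrocyte markers were lower in CPZ as given above. In CTL, replicate 4 had their lowest sum, 4544 CPM, and replicate 3 their highest, 8515. RCV replicates 3 and 4, with the most Ptgds of RCV, held the lowest choroid plexus sums, 229 and 258 CPM. With group means taken out, Pearson r of Ptgds with the mean log2-CPM of each marker list ran from -0.66 (mature oligodendrocytes) to 0.75 (border macrophages). It was 0.73 for meningeal fibroblasts and -0.57 for choroid plexus. The part of any of these cells in the Ptgds levels was not tested.

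Together, the share of Hpgds in the summed TPM of both prostaglandin D synthases was 0.425%, 0.703%, 0.484%, 0.394% and 0.305% in CTL, 4.38%, 3.63%, 1.24% and 3.35% in CPZ and 0.815%, 0.887%, 0.407% and 0.584% in RCV. Every CPZ library lay above every library of the other groups. The shares were formed after the levels had been seen, and Hpgds alone already separated CPZ from both other groups. The tests of this share are therefore not independent support for a difference. The mean difference of CPZ from CTL was 2.69 percentage points, with an exact two-sided permutation p of 0.0159, the smallest that 4 against 5 mice can give, and 0.0857 after adjustment over the 6 tests of shares. CPZ lay 2.48 points above RCV (exact p 0.0286, the smallest for 4 against 4, adjusted 0.0857). On counts the CPZ to CTL difference was 11.5 percentage points with an exact permutation p of 0.0476, adjusted over the 6 tests on counts alone. That value does not account for the tests on TPM.

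**Figure D3:**
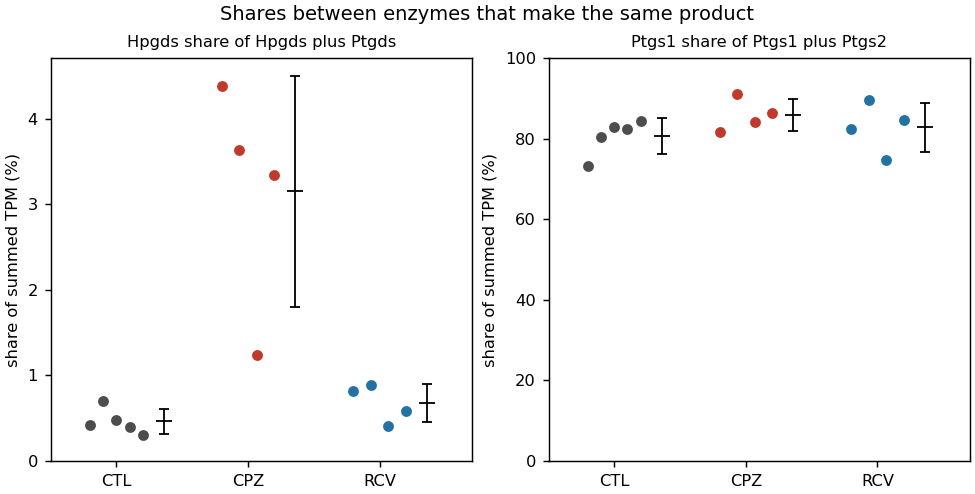
Left, the share of Hpgds in the summed TPM of Hpgds and Ptgds, and right, the share of Ptgs1 in the summed TPM of Ptgs1 and Ptgs2, in percent, 1 point per library with group mean and SD. The Hpgds share was 1.24% to 4.38% in CPZ and at most 0.887% elsewhere, while the Ptgs1 shares overlapped.

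Of the other terminal synthases, Tbxas1 rose more than any other member in CPZ, and Ptges did not pass the test. Tbxas1 (chr6:38875404-39084585, plus strand), thromboxane A synthase, was at 2.17, 2.55, 2.61, 1.99 and 2.93 CPM in CTL, 28.5, 25.4, 13.6 and 15.8 in CPZ and 4.84, 4.86, 2.69 and 5.85 in RCV, which were 13 to 17 counts in CTL, 98 to 209 in CPZ and 14 to 33 in RCV. All CPZ libraries stood far above the rest, and RCV replicate 3 lay within the CTL range while the other RCV libraries lay above it. It rose 8.49-fold in CPZ (log2 3.09, SE 0.25, adjusted p 1.1e-06, edgeR) and stood 4.55-fold above RCV (log2 2.19, SE 0.25, adjusted p 0.000251), and both calls held in all 25 alternatives. RCV against CTL gave log2 0.90 (SE 0.30, adjusted p 0.401). The start of the annotated Tbxas1 locus overlaps Hipk2 on the other strand, a gene with 543 to 1247 counts, and the RefSeq promoter printed above lies downstream of that overlap.

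Ptges (chr2:30889471-30929863, minus strand), the inducible microsomal prostaglandin E synthase, was at 3.81, 3.75, 3.07, 3.82 and 4.03 CPM in CTL, 5.91, 4.01, 4.86 and 4.13 in CPZ and 4.69, 3.89, 4.43 and 3.47 in RCV. CPZ replicate 2 lay just below the highest CTL library, and the groups overlapped. The log2 fold change in CPZ was 0.35 (SE 0.18, adjusted p 0.266, edgeR). With 16 to 41 counts per library, a change of this size could not be told from the spread between mice.

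In the leukotriene branch, Ltc4s (chr11:50236461-50238616, minus strand), which makes the parent cysteinyl leukotriene, was called. It was at 1.63, 2.70, 2.92, 1.07 and 2.02 CPM in CTL, 8.36, 10.1, 4.02 and 5.16 in CPZ and 1.91, 4.05, 1.92 and 1.95 in RCV. The CPZ libraries lay above all CTL libraries, and RCV replicate 2 alone among the RCV libraries reached the level of CPZ replicate 3. It rose 3.33-fold over CTL (log2 1.74, SE 0.33, adjusted p 0.00185, edgeR), a call that held in all 24 alternatives that tested it. CPZ stood 2.77-fold above RCV (log2 1.47, SE 0.35, adjusted p 0.0170), but that call was lost without CPZ replicate 1 (0.0592) or 2 (0.0717), without RCV replicate 1 (0.0677) or 3 (0.0546), without RCV replicates 3 and 4 together (0.178) and on log2 TPM (0.0666 to 0.121). Ltc4s is overlapped by the antisense transcript Gm26542, which held at most 5 counts in any library.

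Alox5ap (chr5:149264767-149288153, plus strand), the membrane protein that presents arachidonic acid to 5-lipoxygenase, was at 1.36, 3.45, 3.07, 1.99 and 1.47 CPM in CTL, 5.47, 6.81, 2.08 and 5.29 in CPZ and 3.81, 1.94, 3.46 and 2.39 in RCV. CPZ replicate 3 lay inside the CTL range, and the other CPZ libraries lay above every CTL and RCV library. The log2 fold change in CPZ was 1.11 (SE 0.34) with an adjusted p of 0.0521 by edgeR, which was 0.00653 without CPZ replicate 3. It passed the threshold in 7 of 24 alternatives, among them those without CTL replicate 2 (0.0329), CTL replicate 3 (0.0482) or RCV replicate 2 (0.0456), and ran up to 0.499.

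Alox5 (chr6:116410077-116461178, minus strand), 5-lipoxygenase itself, had 6, 3, 7, 9 and 5 counts in CTL, 31, 29, 5 and 23 in CPZ and 8, 7, 6 and 6 in RCV. In CPZ, 3 of 4 libraries held more counts than any library of the other groups, and CPZ replicate 3 lay at the CTL level. The gene was too low for the filter and was not among the genes tested. An exact two-sided permutation test of its log2-CPM in CPZ against CTL gave p = 0.0794 (0.143 after adjustment over the 3 comparisons, smallest possible p 0.0159). In the edgeR fit with no filter the log2 fold change was 1.66 (SE 0.39, adjusted p 0.00482), and without CPZ replicate 3 it was 1.96 (0.000349). Over the 10 alternatives that tested it 7 were called, the 3 on log2 TPM not (0.457 to 0.600). Apart from the fit with no filter, the called fits left out CPZ replicate 3 or RCV libraries. With a smaller smallest group the filter asks for fewer libraries, and Alox5 passed it through the CPZ libraries where it was high. These calls are therefore not independent support for a difference.

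The 4 CPZ libraries were not alike in the levels of these genes, and whether the mice or the tissue samples differed was not tested. CPZ replicate 3 had the lowest CPM of the group for 8 of the 10 members and the highest for 1, Ptgds, and its microglia marker sum of 1656 CPM was also the lowest of the 4. Its mature oligodendrocyte markers summed to 2214 CPM, inside the group's range of 2004 to 3372. Without it, 7 of the 10 members then tested were called higher in CPZ against CTL, as Alox5ap, Pla2g4a and Alox5 joined the other 4. Over the 15122 genes then tested, 7.60% were called higher and 1.73% lower. For the genes that joined, the library left out was the CPZ library within the CTL range, so that their calls follow in part from leaving it out. Alox5 was tested there because the filter asks for fewer libraries with a smaller smallest group, and the remaining CPZ libraries carried it over. The choice of that library was made after its values were seen.

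**Figure D4:**
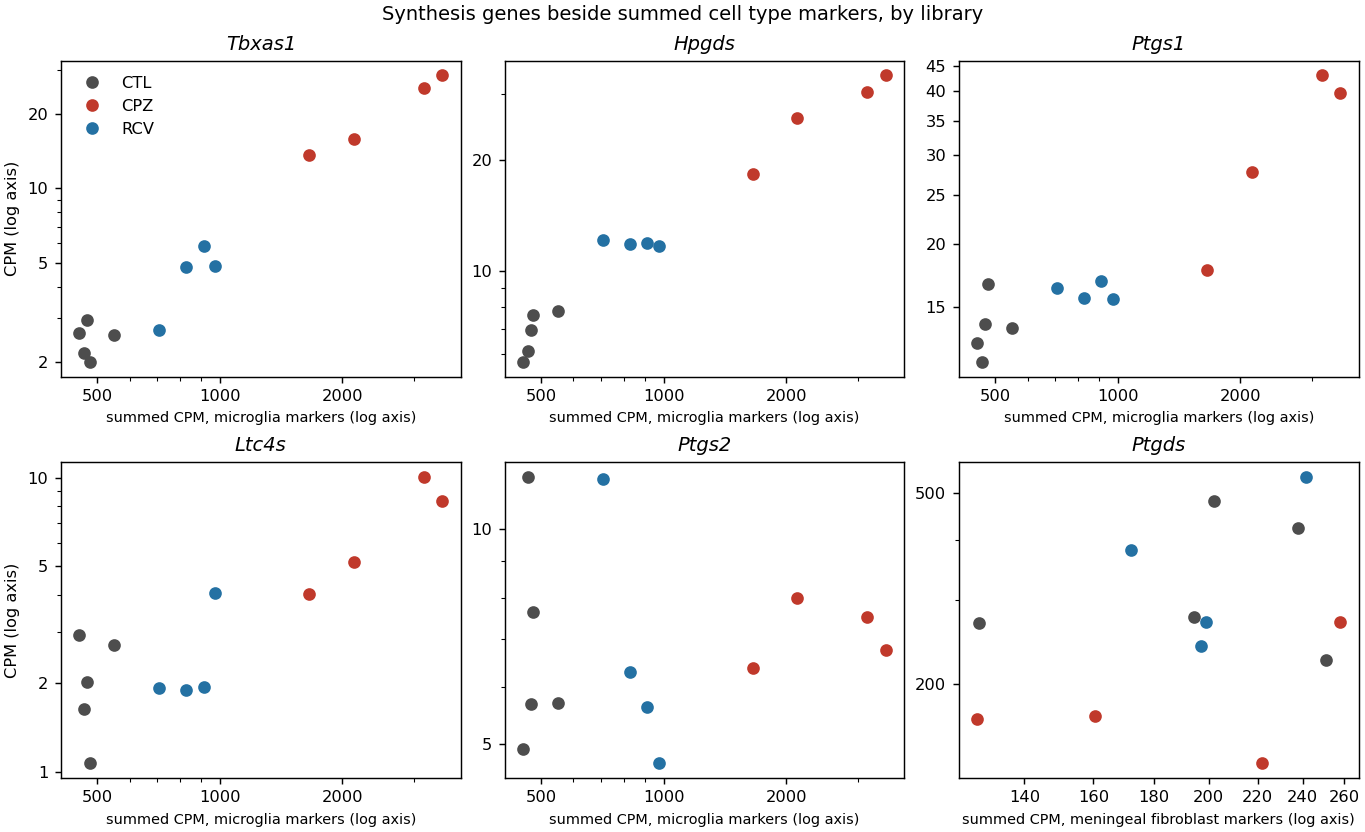
CPM of 6 members in each library (log axes) against the summed CPM of 17 microglia markers or, for Ptgds, of 15 meningeal fibroblast markers. In the CPZ libraries, where the microglia markers summed to 1656 to 3524 CPM, Tbxas1, Hpgds and Ptgs1 lay above all other libraries, Ltc4s of CPZ replicate 3 lay just below RCV replicate 2, and Ptgs2 showed no such order.

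All 17 microglia markers were called higher in CPZ against CTL, with log2 fold changes from 0.97 (P2ry12) to 3.72 (Cd68) and a median of 2.65. The markers at the low end, P2ry12, Tmem119 (1.18), Cx3cr1 (1.72) and Csf1r (1.83), lay below Hpgds (1.98), and P2ry12 and Tmem119 also below Ptgs1 (1.23). Set against the mean log2-CPM of these markers in the same library, 9 of the 10 members were on average lower in CPZ than in CTL, as were 99.2% of all tested genes, so that this count says nothing particular about the members. Ptgs1 went from -0.46 ± 0.18 in CTL to -1.82 ± 0.14 in CPZ (mean ± SD on the log2 scale, n = 5 and 4) and -1.09 ± 0.19 in RCV, and Hpgds from -1.43 ± 0.12 to -2.02 ± 0.17 and -1.52 ± 0.20. Tbxas1 was the exception, at -2.81 ± 0.24 in CTL, -2.42 ± 0.08 in CPZ and -2.90 ± 0.30 in RCV. The part of microglia or astrocytes in the levels of the members was not tested. Of the other myeloid lists, 7 border macrophage markers summed to 4.21 to 10.8 CPM in CTL and 6.84 to 11.8 in CPZ, and 0 of the 2 that passed the filter were called by edgeR, with 0 at an unadjusted p below 0.05 and 0 called by DESeq2 or limma-voom. A list of 11 blood monocyte and granulocyte markers, which also holds hemoglobin genes, summed to 98.6 to 143 CPM in CTL and 83.7 to 128 in CPZ. Of these, 2 passed the filter, and edgeR, DESeq2 and limma-voom called 0 in CPZ against CTL, with 0 at an unadjusted p below 0.05. Among 8 mast cell markers, between 2 and 6 had a count of 0 in each library. The 2 tested had log2 fold changes of -0.12 (Kit) and 0.11 (Gata2) in CPZ against CTL (adjusted p 0.797 and 0.841, edgeR). As the rest of the list was too low to test, these 2 do not show whether mast cells differed.

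Across the 13 libraries, the genes outside the list with the highest Pearson r of log2-CPM to each member were taken as a description of likeness. For Hpgds they were Cd180 (r 0.993), a Toll-like receptor family member of B cells and myeloid cells, and Pld4 (0.992), an exonuclease of microglial endolysosomes. For Tbxas1 they were Plek (0.989), a substrate of protein kinase C in platelets and leukocytes, and Fcrls (0.987), a microglial surface protein. For Ptgs1 it was Pde3b (0.983), and for Ltc4s they were Myo1e (0.969) and Wasf2 (0.954), both of the actin cytoskeleton. For Ptgs2 they were Lmo1 (0.904) and Rnf165 (0.862), and for Ptgds Glra3 (0.923), a glycine receptor subunit, and H1f10 (0.918), a linker histone. These r values carry the difference between the groups as well as the differences between mice, and Alox5ap (Gm4316 0.931, Zc3h14 0.902), Pla2g4a (Socs4 0.901, Plagl2 0.894) and Ptges (Sdad1 0.887, Cchcr1 0.877) rested on few counts.

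Of 62 further genes listed around the 10 enzymes, 58 were in the table and 42 were tested. In CPZ against CTL, 8 were called and all 8 were higher, with a median log2 fold change of 0.068 over the 42. The general rate of calls among the 14985 tested genes was 7.66% upward and 2.50% downward there. In CPZ against RCV, 4 were called higher and 1 lower, where the general rate was 5.13% upward and 1.88% downward. Whether these counts, or those of the shorter lists below, differ from the general rate was not tested. In RCV against CTL, 0 were called by edgeR, 4 had an unadjusted p below 0.05, and DESeq2 and limma-voom each called 0.

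Among lipoxygenase partners, 1 of 8 tested was called in CPZ against CTL. Cotl1, a coactosin-like actin-binding protein known to bind 5-lipoxygenase, was at 40.6 to 50.6 CPM in CTL, 77.7 to 131 in CPZ and 49.1 to 58.6 in RCV, with no overlap of CPZ and either group. It rose 2.39-fold in CPZ (log2 1.26, SE 0.13, adjusted p 1.25e-05, edgeR). Aloxe3, an epidermal-type lipoxygenase, was lower in CPZ (2.74 to 4.72 CPM) than in RCV (6.16 to 12.9), with log2 -1.18 (SE 0.27, adjusted p 0.0117), a call lost on log2 TPM and without RCV replicates 3 and 4 together (0.134).

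Among genes of arachidonate release and re-esterification, 4 of 16 tested were called in CPZ against CTL. Lpcat2, an acyltransferase that also makes platelet-activating factor, was at 9.17 to 13.2 CPM in CTL, 20.4 to 37.3 in CPZ and 12.5 to 17.1 in RCV and rose 2.63-fold (log2 1.40, SE 0.17, adjusted p 2.71e-05, edgeR). Pla2g7, which hydrolyses platelet-activating factor, rose 1.42-fold (log2 0.50, SE 0.09, adjusted p 0.000811), from 115 to 144 CPM in CTL to 179 to 191 in CPZ. Daglb, a diacylglycerol lipase, and Pla2g15, a lysosomal phospholipase, were 1.31-fold and 1.33-fold higher (adjusted p 0.0177 and 0.0210, edgeR). Each call was lost in 6 of 25 alternatives. Both were lost without CPZ replicate 1 (0.0691 and 0.0624) or 2 (0.0642 and 0.0994) and with a replicate block (0.0651 and 0.0676). They were also lost on log2 TPM (0.0769 to 0.120 for Daglb, 0.229 to 0.336 for Pla2g15). Daglb was also called higher in CPZ against RCV (log2 0.39, SE 0.11, adjusted p 0.0398), a call lost in 11 of 25 alternatives, among them those without CPZ replicate 1 (0.121) or 2 (0.111) or any 1 of the RCV libraries (0.0502 to 0.113).

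The clearing enzyme of prostaglandins, Hpgd (15-hydroxyprostaglandin dehydrogenase), was the 1 of 7 called among genes of inactivation and transport. It was at 2.72, 4.65, 2.61, 3.21 and 3.67 CPM in CTL, 12.8, 8.51, 12.5 and 9.30 in CPZ and 3.23, 5.83, 4.81 and 7.37 in RCV. The CPZ libraries lay above all others, and CPZ replicate 3 was among the 2 highest here, unlike for most of the synthesis genes. It rose 3.19-fold in CPZ (log2 1.67, SE 0.23, adjusted p 9.32e-05, edgeR) and stood 2.05-fold above RCV (log2 1.04, SE 0.24, adjusted p 0.0127).

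Of the receptors, 3 of 9 prostanoid and 2 of 5 leukotriene receptors were tested and 1 of each was called in CPZ against CTL. Cysltr1, the receptor of cysteinyl leukotrienes, had 1 to 6 counts in CTL, 10 to 18 in CPZ and 2 to 10 in RCV (log2 1.65, SE 0.44, adjusted p 0.0222, edgeR). Its call was lost without CPZ replicate 1 (0.0937) or 3 (0.0554) and on log2 TPM with no filter (0.356). Ptger4, a receptor of prostaglandin E2, had 4 to 16 counts in CTL, 16 to 33 in CPZ and 8 to 17 in RCV (log2 1.19, SE 0.36, adjusted p 0.0421), a call kept in 11 of 24 alternatives. Both rested on few counts, and Ptger4 is overlapped on the other strand by Ttc33, a gene with 162 to 279 counts. The 6 prostanoid synthesis partners that were tested, prostaglandin E synthases of other types among them, gave 0 calls by edgeR in CPZ against CTL, 4 with an unadjusted p below 0.05, and 0 calls by DESeq2 or limma-voom.

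**Figure D5:**
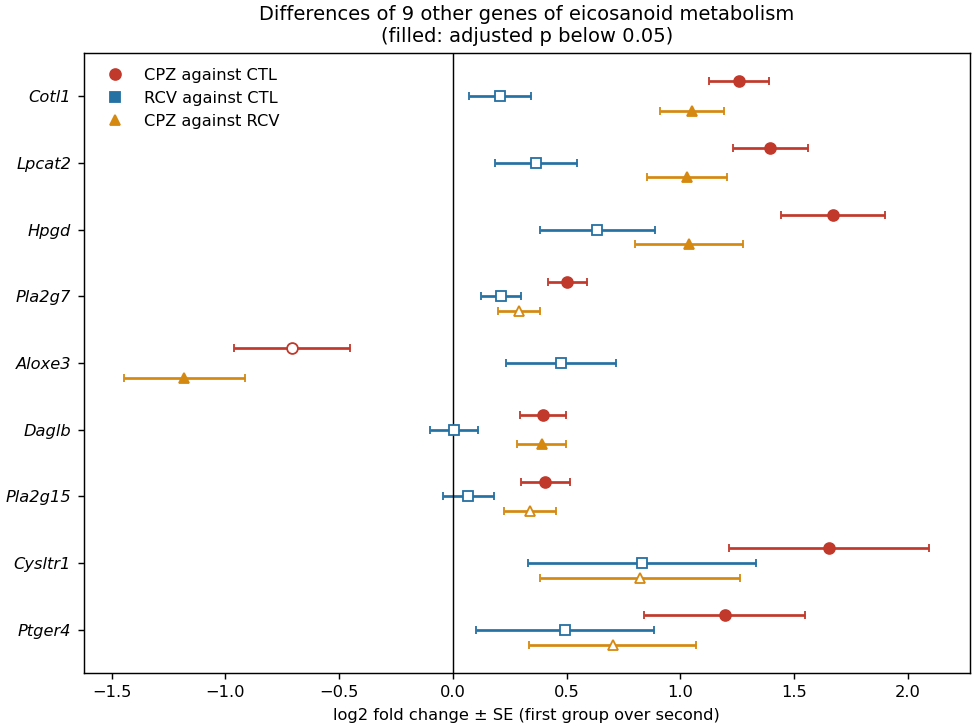
Log2 fold change with its SE of the 9 genes around the 10 enzymes that were called in at least 1 comparison (rows), for CPZ against CTL (circles), RCV against CTL (squares) and CPZ against RCV (triangles), filled where the adjusted p was below 0.05. Hpgd, Lpcat2, Cotl1 and Daglb were filled in both comparisons with CPZ, and Aloxe3 was filled below 0 in CPZ against RCV.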

How the data were processed

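The authors used the Kapa mRNA HyperPrep Kit and sequenced paired-end reads of 50 bases. The authors deposited, per gene and library, estimated counts that are not scaled to library size and TPM values, which are scaled to transcript length and library. The submitters' processing notes name STAR, RSEM and the build mm10. The study's methods name the RNASequest pipeline for the bulk data. Versions and the authors' test were not given in the sources used here. Groups came from the sample labels, 1 library per mouse, and 0 count columns were without a sample. RCV libraries carry titles with "Veh", and recovery is named in their treatment label. The study's methods and the treatment protocol in the labels give fewer mice per group, while a figure legend of the study counts the same 13 samples as the labels (5 CTL, 4 CPZ and 4 RCV).

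The estimated counts were rounded. In edgeR 4.0.16, filterByExpr removed low genes by group, TMM set the scaling, and 1 robust quasi-likelihood fit of all libraries held 1 mean per group. P values were adjusted over all 14985 tested genes at a threshold of 0.05, and log2-CPM used a prior count of 2. The test was run on simulated counts with the same dispersion for every gene, which does not show how it performs at the spread of these libraries. Alternatives used DESeq2 1.42.0, limma 3.58.1 (voom, and log2 TPM after adding 1 or 0.1, for genes that reach 1 TPM in 4 libraries), other scalings and filters, the compared groups alone, a replicate block and each library left out. Two-sided exact permutation tests of the shares used scipy 1.17.1 in Python 3.11.15, and that of Alox5 was run in R. The tests of shares on TPM and on counts were adjusted as separate sets. Replicates were separate mice, so that p values measure the spread between mice.

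Gene positions came from GENCODE M21, which holds 98.1% of the identifiers with their versions, and promoters from RefSeq. Reads are not known to have been counted by strand, so overlapping antisense genes cannot be told apart. Besides those given above, Daglb is overlapped on the other strand by Rac1 (1187 to 2215 counts) and Alox5ap by Gm19719 (at most 8 counts). The 10 genes, the marker and pathway lists and the tests were chosen with earlier results of these data known. Named genes are all members, the pathway genes called in at least 1 comparison, and for each tested member the 2 other genes with the highest Pearson r over the 13 libraries, of which 1 is not reported here. Genes named outside this rule (Hipk2, Gm26542, Ttc33, Rac1, Gm19719, Kit, Gata2, P2ry12, Tmem119, Cx3cr1, Csf1r, Cd68, Gfap, Vim, Ptgr1, Prxl2b, Akr1b3, Cbr1) were chosen after their values were seen.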

Additional observations from a re-analysis of the deposited data

Results flagged for a closer look

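Of 30 groups of libraries checked for 1 library far from the others, 2 stood out, and chance flags about 1 in 20 such groups. In the CTL group, Ptges of replicate 3 lay below the other libraries, with 3.07 CPM beside 3.75 to 4.03 CPM, and its gap took up 0.729 of the range of log2-CPM in the group. In the RCV group, Ltc4s of replicate 2 lay above the others, with 4.05 CPM beside 1.91 to 1.95 CPM, and its gap took up 0.970 of the range. Without that library the log2 fold change of Ltc4s in RCV against CTL was -0.10 in place of 0.27, and neither value passed the test.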

How the results depend on the processing

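Of the calls among the members, those of Tbxas1 and Hpgds in CPZ against CTL and against RCV and of Ptgs1 and Ltc4s in CPZ against CTL held in all alternatives that tested them. The count of members called in CPZ against CTL ran from 4 to 7 with 1 library left out, the 7 being without CPZ replicate 3. Fits without CPZ replicate 3 or an RCV library counted Alox5, which the main fit did not test. In RCV against CTL it was 1 with the DESeq2 Wald test, 1 with no filter on low counts and 1 with the compared groups alone, and 0 to 1 with 1 library left out, and this member was Hpgds throughout. In CPZ against RCV it was 2 in each of the 3 fits on log2 TPM and 2 without RCV replicates 3 and 4 together, an alternative added after seeing the data. Pathway genes called numbered 4 in CPZ against CTL in each fit on log2 TPM and 4 to 9 with 1 library left out, the 4 being without CPZ replicate 1 and 5 without CPZ replicate 2, while in CPZ against RCV they numbered 3, 3 and 1 on log2 TPM (the 1 without a filter) and 3 without RCV replicates 3 and 4. The cause was not tested.

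Signs turned for values that were not called. Ptgs2 in CPZ against CTL was 0.011 with scaling to total counts, 0.011 with no filter, 0.0058 with at least 10 counts in every library, 0.0084 with the compared groups alone, 0.050 with limma-voom, 0.25, 0.31 and 0.25 on log2 TPM, and -0.12 to 0.26 with 1 library left out. With 1 library left out, Ptgs2 ran from -0.38 to 0.23 in RCV against CTL and from -0.13 to 0.37 in CPZ against RCV, Ptgds in RCV against CTL from -0.17 to 0.27 (-0.39 without RCV replicates 3 and 4) and Ltc4s there from -0.10 to 0.42. On log2 TPM, Alox5ap in RCV against CTL was -0.37, -0.42 and -0.37 and Ptges in CPZ against RCV -0.17, -0.20 and -0.17. The Ptgs1 share in RCV against CTL ran from -0.089 to 4.84 percentage points with 1 library left out.

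With the replicate block, 4, 0 and 4 members and 6, 0 and 4 pathway genes were called in these comparisons (CPZ against CTL, then RCV against CTL, then CPZ against RCV), and over all genes 1172, 42 and 755 in place of 1522, 56 and 1050. Libraries with the same number in different groups correlated between -0.20 and 0.14 in their deviations from the group means, and 3 of 12 such pairs were above 0.1, so that the numbers were not taken as pairing. Tbxas1, Alox5, Alox5ap, Ltc4s, Cysltr1 and Ptger4 had fewer than 20 counts in most CTL libraries, which limits the precision of their CTL levels.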

Other observations

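Among the partner enzymes that did not pass the test, the 4 with an unadjusted p below 0.05 in CPZ against CTL had small differences on the log2 scale, apart from 1. Ptgr1, which reduces prostaglandins and inactivates leukotriene B4, was at 0.97 (SE 0.34, adjusted p 0.0888, edgeR). Akr1b3, an aldose reductase able to make prostaglandin F2α, was at 0.25 (SE 0.08, adjusted p 0.0625). Prxl2b, a prostamide and prostaglandin F synthase, was at -0.27 (SE 0.09, adjusted p 0.0646) and Cbr1, a carbonyl reductase that acts on prostaglandin E2, at -0.20 (SE 0.09, adjusted p 0.217).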
